A study of Mus musculus with 6 samples.

Results

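The total RNA of Min6 cells under glucolipotoxic treatment was described gene by gene and by gene class. Min6 is a mouse insulinoma line, a tumour line of insulin-secreting beta cells. The members are the 3 libraries labelled total RNA, out of 6 libraries in the series, and they were chosen by that label alone. The other 3 libraries hold RNA recovered with an antibody against hnRNPK, an RNA-binding protein, and were not analysed here.

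All libraries came from the same line at passage 31, grown in DMEM of high glucose. Cells received 25 mM glucose together with 500 µM palmitic acid, a saturated fatty acid, for 30 h before harvest. They were lysed in an NP-40 buffer, and the total RNA was purified on a column from a 10% portion of the lysate. An untreated group was not analysed here, so a level given below is a level under treatment and not a response to it. Each group is 1 line at 1 passage, and no label says that the 3 libraries came from separate cultures, so the spread between them may be technical. An exact sign-flip test over 3 libraries cannot give a two-sided p below 0.25, and no test was made.

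Beta cells store insulin in dense-core granules, where granins help to pack the cargo and prohormone convertases cut proinsulin into insulin. Glucose enters, is phosphorylated and is oxidised, which closes ATP-sensitive potassium channels and opens calcium channels that trigger granule release. The load of secretory protein makes the endoplasmic reticulum of these cells sensitive to folding stress, and prolonged high glucose with a saturated fatty acid is a widely used model of such stress.

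Libraries 1, 2 and 3 held 52735957, 46657732 and 46185284 counts, and 21805, 22625 and 22619 genes had at least 1 count. At these depths a count of 0 allows up to 3 counts, which is 0.0569, 0.0643 and 0.0650 CPM, counts scaled to a common library total. Such limits cover counting error only. Library 1 stood apart from libraries 2 and 3. Per degree of freedom, chi-square of the counts was 48.7 for libraries 1 and 2, 44.5 for libraries 1 and 3, and 6.08 for libraries 2 and 3, so every pair differed by more than sampling noise. The biological coefficient of variation, the spread beyond counting error, was 10.3% over the 3 libraries and 4.09% without library 1. For the leading classes the mean of libraries 2 and 3 is therefore given as well.

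Levels are in TPM, which divides counts by the union length of a gene's exons and scales every library to the same total. The value can be compared between genes, as far as reads can be assigned to them. Near-identical sequences set a limit to that. The following stretches of 60 bases show a pair of insulin genes that can be told apart and 2 coding genes beside a processed pseudogene, aligned to the coding stretch, that cannot. They were read from GENCODE M21 transcripts on GRCm38, and capitals mark the bases that differ within a pair.
Ins2, chr7:142679474-142679533, minus strand: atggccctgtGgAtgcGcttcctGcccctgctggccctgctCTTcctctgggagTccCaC
Ins1, chr19:52264624-52264683, plus strand: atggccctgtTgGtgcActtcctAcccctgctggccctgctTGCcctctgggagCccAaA
Eef1a1, chr9:78480089-78480148, minus strand: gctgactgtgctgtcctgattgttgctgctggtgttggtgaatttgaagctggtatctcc
Gm13456, chr2:40556051-40556110, plus strand: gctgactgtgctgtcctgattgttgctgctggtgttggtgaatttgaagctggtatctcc
Tpt1, chr14:75846203-75846262, plus strand: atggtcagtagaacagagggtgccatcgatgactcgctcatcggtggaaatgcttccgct
Tpt1-ps3, chr6:99878173-99878232, minus strand: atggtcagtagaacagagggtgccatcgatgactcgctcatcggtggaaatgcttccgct
The Ins2 and Ins1 stretches, in exon 2 of 3 and exon 2 of 2, differed at 10 of 60 bases, and the longest run they shared was 17 bases. In the coding sequence of Ins2, 98.2% of 50-base words were found in no other annotated gene. The elongation factor gene Eef1a1 (exon 4 of 8) and the processed pseudogene Gm13456 showed 0 differences, as did the growth-related gene Tpt1 (exon 3 of 6) and the processed pseudogene Tpt1-ps3. Processed pseudogenes are copies of an mRNA set back into the genome, and the sources used here do not give how the authors' counting shared reads between such copies.

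The cells expressed a beta cell secretory programme. Of 16 listed beta cell markers, 16 were detected, meaning at least 1 TPM in all 3 libraries, and the lowest was the glucose transporter Slc2a2. The 4 genes that check the label were among the well expressed ones. The amyloid polypeptide gene Iapp had 53829, 66163 and 63848 TPM in libraries 1, 2 and 3, and Ins2 had 26143, 34631 and 39747 TPM. The granin gene Chga had 8026, 9622 and 9923 TPM, and Pdx1, a transcription factor of beta cell identity, had 701, 622 and 588 TPM. Library 1 was lowest for the first 3 of these genes and highest for Pdx1. In the GRCm38 annotation Iapp (ENSMUSG00000041681.2) lies at chr6:142298423-142303961, Ins2 (ENSMUSG00000000215.11) at chr7:142678656-142743381, Chga (ENSMUSG00000021194.6) at chr12:102554969-102565028 and Pdx1 (ENSMUSG00000029644.7) at chr5:147269959-147275848.

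Expression was concentrated in few genes. Of 21790 protein-coding genes measured, 12013 (55.1%) were detected, 8923 reached 10 TPM, 1624 reached 100 TPM and 69 reached 1000 TPM in all 3 libraries. The median level of the detected genes was 26.7 TPM, with quartiles of 10.7 and 63.5 TPM. The single highest gene took 6.13 ± 0.656% of all TPM (SD, n = 3), the 10 highest took 18.1 ± 2.25% and the 100 highest took 33.0 ± 2.46%. No count in any library was found for 5331 of 21865 protein-coding genes (24.4%).

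Among the 30 protein-coding genes of highest level were 7 of the mitochondrial genome, hormones and granins described below, and several genes of general function. Eef2, the ribosome translocation factor, had 6645, 5668 and 5771 TPM and the chaperone Hsp90ab1 2717, 2211 and 2261 TPM. Prkar1a, the regulatory subunit of protein kinase A, had 3346 ± 198 TPM and Calm3, a calmodulin gene, 2111 ± 87.7 TPM. Eef2 and Hsp90ab1 were highest in library 1.

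**Figure D1:**
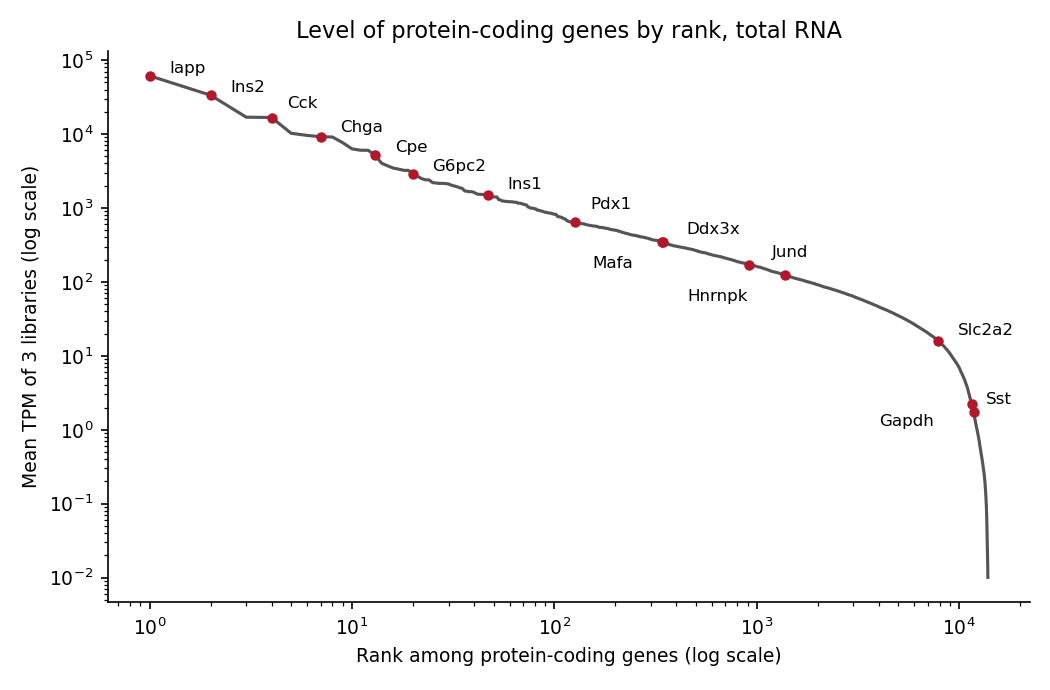
Mean TPM of the 3 libraries (log scale) against rank among protein-coding genes (log scale), with chosen genes marked by red points. The curve falls from Iapp at 61280 TPM through Pdx1 at 637 TPM to Gapdh at 2.24 TPM, and the islet hormone Sst lies near its lower end. Reads of Gapdh may be shared with its processed pseudogenes, so its level is uncertain.

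Islet hormones led the ranking of 70 gene classes, which can share genes. Their 11 members summed to 97676, 124653 and 128500 TPM in libraries 1, 2 and 3, a mean of 116943 ± 16796 TPM (SD, n = 3) and of 126576 TPM in libraries 2 and 3. This sum ranked first in each library, 9 of 11 members were detected, and Iapp alone held 52.4% of it. By counts, which also weigh transcript length, the islet hormones took 2.77, 3.90 and 4.05% of the libraries.

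The order of the hormones was Iapp, Ins2, Cck, Npy, Ins1, Gcg. Iapp, cosecreted with insulin, averaged 61280 ± 6556 TPM (65006 in libraries 2 and 3), above Ins2 at 33507 ± 6871 TPM (37189 in libraries 2 and 3), and the ranges of the 2 genes did not overlap. The ratio of Iapp to Ins2 TPM was 2.06, 1.91 and 1.61 in the 3 libraries. The order of these 2 held with the other gene lengths tried, but the size of the gap depended on the length used. The union and longest transcript were 1312 and 918 nt for Ins2 and 974 and 839 nt for Iapp. Lengths of shorter transcripts were not tried, so the order is given for these lengths only. With the length of the longest transcript, Iapp stood at 55451 and Ins2 at 37328 TPM. With the length of unique 50-base words they stood at 61360 and 27927 TPM. Cck, which encodes cholecystokinin, a hormone of the gut and brain, followed with 13583, 18000 and 18622 TPM. It stood 4.90 ± 0.400 times above Npy, the gene of neuropeptide Y, at 3458 ± 808 TPM.

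The 2 mouse insulin genes were far from equal. Ins1, at chr19:52264297-52265476, had 1149, 1580 and 1762 TPM. By union length Ins2 exceeded it 22.4 ± 0.438 times, a ratio that varied less between libraries than either level. The size of the ratio depends on the length used. The longest transcript of Ins2 is 918 nt against a union of 1312 nt, whereas both are 1062 nt for Ins1. The ratio is thus larger with the longest transcript. Gcg, the glucagon gene of alpha cells, had 402, 429 and 446 TPM, a tight range of 426 ± 22.1 TPM. The remaining islet hormones were low. Ppy, encoding pancreatic polypeptide, had 17.9 ± 4.86 TPM and Pyy 2.69 TPM. Somatostatin (Sst) gave 22, 16 and 12 counts and ghrelin (Ghrl) 4, 10 and 11 counts.

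Promoter sequence is shown for 3 of the leading hormone genes and for Chga, since factors active in beta cells are known to bind TAAT (Pdx1 and other homeodomain proteins), CATCTG (an E-box of Neurod1) and TGACG (the core of the cAMP response element, bound by CREB). The 250 bases before each RefSeq start on GRCm38.p6 are given 5′ to 3′ on the gene's strand. Capitals mark these letters on either strand, and matches that overlap or touch run together.
Iapp, chr6:142298175-142298424, plus strand: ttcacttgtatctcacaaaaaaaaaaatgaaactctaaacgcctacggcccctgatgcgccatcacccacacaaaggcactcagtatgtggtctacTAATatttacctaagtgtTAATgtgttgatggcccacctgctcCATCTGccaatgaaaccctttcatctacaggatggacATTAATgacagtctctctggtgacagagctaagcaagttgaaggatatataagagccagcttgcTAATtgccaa
Ins1, chr19:52264047-52264296, plus strand: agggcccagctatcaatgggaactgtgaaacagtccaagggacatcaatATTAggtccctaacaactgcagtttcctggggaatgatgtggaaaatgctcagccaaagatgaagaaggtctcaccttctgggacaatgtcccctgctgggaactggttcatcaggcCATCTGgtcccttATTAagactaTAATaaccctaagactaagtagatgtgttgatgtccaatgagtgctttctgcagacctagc
Cck, chr9:121495695-121495944, minus strand: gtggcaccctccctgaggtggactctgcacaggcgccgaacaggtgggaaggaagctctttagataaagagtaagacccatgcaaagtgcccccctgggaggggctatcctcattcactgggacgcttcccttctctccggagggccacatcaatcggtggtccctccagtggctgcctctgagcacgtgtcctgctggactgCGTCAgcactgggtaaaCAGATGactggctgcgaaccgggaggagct
Chga, chr12:102554691-102554940, plus strand: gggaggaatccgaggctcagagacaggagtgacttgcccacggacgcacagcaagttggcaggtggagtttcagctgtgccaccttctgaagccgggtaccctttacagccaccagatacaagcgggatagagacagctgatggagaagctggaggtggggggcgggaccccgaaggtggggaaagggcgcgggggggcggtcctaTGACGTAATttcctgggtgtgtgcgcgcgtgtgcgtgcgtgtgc
Iapp held 5 matches to TAAT and 1 to CATCTG, Ins1 held 3 and 1, Cck held 1 CATCTG and 1 TGACG, and Chga held 1 TAAT and 1 TGACG. Among 27025 RefSeq windows of this length, 55.3% held TAAT, 14.5% CATCTG and 17.9% TGACG. Of the 100 protein-coding genes with the highest TPM, 65 had a window, and these held the motifs in 36.9, 13.8 and 36.9% of cases. Windows of the 9483 genes with at least 1 TPM held them in 38.05, 9.46 and 28.3%, and windows of the 3773 genes with no count in 76.4, 17.4 and 7.85%. TAAT and CATCTG were thus less frequent and TGACG more frequent in windows of expressed genes than of genes with no count. This is a description with no test, and the base composition of the windows was not taken into account. A match is no evidence of binding.

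Granins and granule membrane proteins held rank 3 in every library, with a sum of 33733 ± 1399 TPM (34540 TPM in libraries 2 and 3), and 13 of 13 members were detected. Chga and Chgb, the chromogranins of the granule core, stood at 9190 ± 1019 and 9115 ± 441 TPM. Their ratio was 1.01 ± 0.0666, so by union length their levels did not differ beyond the spread. That near equality depended on the length used. The union of Chga is 2756 nt and its longest transcript 1883 nt, whereas both are 2740 nt for Chgb. With the length of the longest transcript, Chga rose to 10484 TPM. Scg2, another granin, had 6279, 6342 and 6273 TPM, and the 3 libraries were nearly level on that scale. By CPM Scg2 was lowest in library 1, at 4064, 4509 and 4458 CPM. Scg3 followed with 3712 ± 106 TPM, Ptprn, a granule membrane protein and diabetes autoantigen, with 2176 ± 92.7 TPM, and Vgf, a secreted granin-like protein, with 1531 ± 103 TPM. Slc30a8, the granule zinc transporter, reached 404 ± 18.1 TPM. The lowest member was Cadps, a priming factor of granule release, at 16.5 ± 1.93 TPM. Outside this list, Pdyn, the precursor of the dynorphin opioid peptides, had 6045 ± 109 TPM.

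The enzymes that mature prohormones summed to 8401 ± 353 TPM, with 8 of 8 detected. Cpe, carboxypeptidase E, which trims basic residues after cleavage, had 4739, 5428 and 5310 TPM and made up most of the sum. The convertase Pcsk2 had 881, 876 and 862 TPM and Pcsk1 had 527, 471 and 453 TPM. Pcsk2 stood above Pcsk1 in every library, by 1.81 ± 0.124 times. The chaperone of Pcsk2, Scg5, had 818 ± 79.8 TPM, and Pcsk1n, an inhibitor of Pcsk1, had 276, 411 and 418 TPM. Pam, which amidates peptides, had 656, 483 and 486 TPM. Library 1 was the lowest for Cpe, Scg5 and Pcsk1n and the highest for Pcsk1 and Pam, by TPM and by CPM. For Pcsk2 it was the highest by TPM but the lowest by CPM, at 1793, 1959 and 1927 CPM.

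Beta cell transcription factors formed a class of lower level, with 3763 ± 355 TPM over 30 genes (3559 TPM in libraries 2 and 3), of which 23 were detected. Pdx1 led at 637 ± 57.6 TPM (605 TPM in libraries 2 and 3). It was followed by the zinc finger factor Insm1 at 549 ± 30.2 TPM and by Nkx6-1, a homeodomain factor of mature beta cells, at 499 ± 69.0 TPM. Neurod1 and Mafa, which activate the insulin promoter, had 399 ± 33.0 and 346 ± 33.7 TPM. Insm1 and Nkx6-1 overlapped in range, and so did Neurod1 and Mafa. Isl1 and Nkx2-2 stood at 227 and 226 TPM, Foxa2 at 181 ± 4.20 TPM and Pax6 at 104 TPM. The progenitor factor Neurog3 gave 0 counts, Sox9 gave 0, 6 and 0, and Pax4 gave 6, 7 and 12. These 3 factors of progenitor or developing islet cells were thus at or close to 0.

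**Figure D2:**
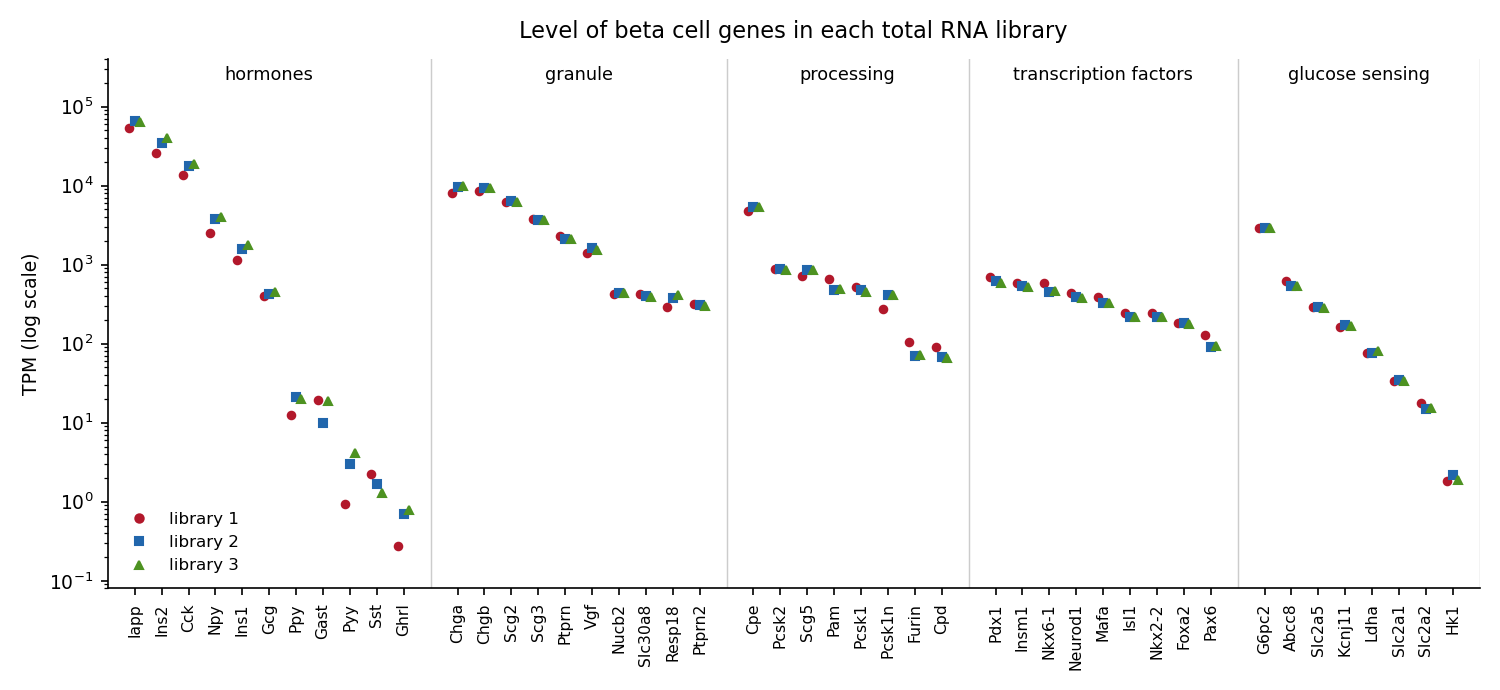
TPM on a log scale of beta cell genes in each of the 3 libraries (red circles library 1, blue squares library 2, green triangles library 3), grouped by role. Hormones spread from 61280 TPM for Iapp to under 10 TPM for Pyy, Sst and Ghrl, transcription factors run from Pdx1 at 637 TPM to Pax6 at 104 TPM on average, and library 1 is lowest for the leading hormones.

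The list of glucose phosphorylation was dominated by an enzyme that opposes it. G6pc2, an islet glucose-6-phosphatase, had 2923, 2895 and 2908 TPM and held 95.2% of the class sum of 3057 TPM. G6pc2 was almost level across the libraries by TPM, but by CPM it was lowest in library 1, at 1485, 1615 and 1622 CPM. Hk1, a low-Km hexokinase that beta cells usually silence, had 1.96 ± 0.170 TPM, and Hk2 gave 4, 4 and 10 counts.

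Among glucose transporters, Slc2a5, the fructose transporter, was highest with 288, 293 and 282 TPM and held 66.6% of the sum of 432 TPM. Slc2a2, the low-affinity glucose transporter of rodent beta cells, had 17.8, 14.7 and 15.3 TPM. Slc2a1, which serves glucose uptake in many cell types, had 33.4, 35.0 and 33.7 TPM. Slc2a5 exceeded Slc2a2 by 18.2 ± 1.89 times, and Slc2a1 also stood above Slc2a2 in every library. Ldha, lactate dehydrogenase A, which beta cells keep low, reached 78.4 ± 3.11 TPM, and the lactate carrier Slc16a1 24.2 TPM.

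Downstream of sugar entry, glycolysis summed to 3096 ± 80.3 TPM and pyruvate entry with the citric acid cycle to 4081 ± 51.1 TPM, with 16 of 17 and 28 of 28 genes detected. By the reads assigned to each gene, the highest glycolytic genes were Aldoa, the aldolase, with 868, 931 and 926 TPM, and Pkm, pyruvate kinase, with 859, 870 and 884 TPM. Processed pseudogenes of Pkm held another 589 CPM beside its own 1195 CPM, so the order of these 2 is uncertain. With pseudogene reads added to the best-matching genes, the glycolysis sum was 3746.5 TPM. Tpi1, triose phosphate isomerase, followed with 568 ± 27.5 TPM. In the citric acid cycle Mdh1, the cytosolic malate dehydrogenase of the malate shuttle, had 478 ± 30.7 TPM. Sdha, a subunit of succinate dehydrogenase, had 234, 231 and 230 TPM and was nearly level. Of 21 genes that normal beta cells keep low, 14 were detected, and their sum was 289 ± 13.3 TPM. Oat, ornithine aminotransferase, led them at 104 ± 10.1 TPM.

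The ATP-sensitive potassium channel was expressed from both of its genes. Abcc8, the sulfonylurea receptor subunit, had 561 ± 45.8 TPM and Kcnj11, the pore, 170 ± 5.04 TPM. Of receptors, Ffar1, which senses long-chain fatty acids, was highest with 437, 317 and 316 TPM. Glp1r, the receptor of the incretin GLP-1, had 86.7, 52.6 and 55.6 TPM and Gipr, that of GIP, 22.2 TPM. Ffar1 and Glp1r were both highest in library 1, whereas libraries 2 and 3 were close to each other. Exocytosis genes summed to 5115 ± 504 TPM (4824 in libraries 2 and 3), with 32 of 36 detected. The highest of them was Syt13, an atypical synaptotagmin, at 1502 ± 110 TPM, and the complexin Cplx2 had 580 ± 162 TPM. Snap25, a SNARE protein of granule fusion, had 129 TPM.

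Proteins that fold secretory cargo were high as a group. Chaperones and disulfide isomerases of the endoplasmic reticulum summed to 18052 ± 1165 TPM, with 20 of 20 detected. P4hb, a disulfide isomerase, led with 3231 ± 164 TPM, followed by the calcium-binding chaperone Calr with 2150 ± 72.0 TPM. Hspa5, the BiP chaperone, had 1710, 1687 and 1640 TPM, a narrow range. Ppib was the lowest member at 60.5 TPM.

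Genes of the unfolded protein response were lower, with a sum of 3808 ± 82.1 TPM and 23 of 24 detected. Atf4, a transcription factor of the integrated stress response, had 510, 581 and 607 TPM. Its targets Ddit3, which encodes CHOP, and Chac1 had 65.3, 101 and 99.98 TPM and 99.1, 148 and 143 TPM. Xbp1, the factor activated by Ire1 splicing, had 286 ± 10.3 TPM, and Ern2, an Ire1 gene of gut epithelium, gave 2, 11 and 0 counts. Library 1 was the lowest of the 3 in CPM for 18 of 23 genes of this list that had a mean of at least 5 CPM. Over all 11518 genes with that mean, 43.9% were lowest in library 1. Without library 1, Ddit3 stood at 100.3 TPM against 88.7 ± 20.2 TPM over all 3.

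Lipid synthesis exceeded lipid oxidation in summed level. The synthesis and storage list reached 6795 ± 437 TPM (30 of 37 detected), and uptake, activation and oxidation reached 1363 ± 96.9 TPM (27 of 32 detected). Scd2, a stearoyl-CoA desaturase, and Acly, which makes cytosolic acetyl-CoA from citrate, led with 1627 ± 94.7 and 1413 ± 61.7 TPM. The other desaturase of this kind, Scd1, had 352 TPM, the fatty acid synthase Fasn 139 TPM and the lipid droplet protein Plin2 26.8 ± 3.08 TPM. On the oxidation side, the acyl-CoA synthetase Acsl5 had 177 TPM and Cpt1a, the gate of mitochondrial import of fatty acids, 48.95 TPM. The fatty acid carrier Cd36 and the receptor Ppara stood below 1 TPM, at 0.538 and 0.228. Txnip, a glucose-induced inhibitor of thioredoxin, had 103, 103 and 107 TPM.

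Antioxidant genes summed to 3592 ± 64.9 TPM, with 31 of 32 detected. Sqstm1, which encodes the autophagy receptor p62, had 736, 772 and 756 TPM, and the glutathione peroxidase Gpx1 had 220, 263 and 262 TPM. The metallothionein Mt1, which binds zinc, had 521, 774 and 854 TPM, so its level was lowest in library 1, whereas Mt2 averaged 3.58 TPM.

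Apoptosis regulators summed to 1616 ± 13.2 TPM, and 32 of 37 were detected. On the protective side Mcl1 had 171, 157 and 155 TPM and Bcl2l2 127, 102 and 104 TPM. On the other side Bax, which permeabilises the outer mitochondrial membrane, had 88.8, 117 and 123 TPM, and Bbc3, the BH3-only protein PUMA, 70.6, 83.9 and 85.8 TPM. By CPM, 11 of the 30 genes of this list with a mean of at least 5 CPM were highest in library 1 and 15 were lowest there, against 43.2 and 43.9% of all genes. The death receptor gene Fas was at 0.319 TPM.

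The study of these cells was concerned with the RNA-binding protein hnRNPK and the mRNAs of Jund and Ddx3x. The mRNAs of these genes all stood above 63.5 TPM, the upper quartile of detected protein-coding genes. Hnrnpk (chr13:58391142-58403343) had 126, 124 and 121 TPM, and Jund (chr8:70698949-70700616), an AP-1 factor, had 176, 171 and 168 TPM. Ddx3x (chrX:13280970-13294052), a DEAD-box RNA helicase, had 397, 319 and 318 TPM. By TPM, Hnrnpk and Jund were almost level across libraries, whereas Ddx3x was highest in library 1. In the coding sequence of Hnrnpk, 24.9% of 50-base words were found in no other annotated gene. Its 3 processed pseudogenes held 183 CPM against 219 CPM for Hnrnpk itself, so its level would be higher if those reads were its own. Within the 30 hnRNP and poly(C)-binding genes, of which 30 were detected, Pcbp1 was highest at 644 ± 7.83 TPM. Of 27 AP-1 and immediate early genes, 23 were detected. The nuclear receptor Nr4a1 led them with 201 ± 1.87 TPM, while Jun had 145 TPM, Junb 83.1 TPM, Fos 56.2 TPM and Fosb 7.21 TPM.

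Genes of the cell cycle were expressed, with 36 of 38 detected. Mki67, a marker of cycling cells, had 209 TPM. The cyclin D2 gene Ccnd2 had 265, 141 and 157 TPM, highest in library 1, whereas cyclin D1 (Ccnd1) averaged 0.372 TPM. Cell cycle inhibitors were present beside them, with Cdkn2c at 584 TPM, Cdkn2a at 388 TPM and Cdkn1a at 304 TPM. Genes shared with neurons and monoamine cells were also present, among them Ddc, aromatic amino acid decarboxylase, at 544 ± 35.1 TPM and Th, tyrosine hydroxylase, at 235 ± 6.72 TPM. Syp, synaptophysin, had 300, 292 and 299 TPM. Rest, the repressor of neuronal genes, had 0.507 TPM. Among 26 imprinted genes, of which 18 were detected, Nnat, neuronatin, held 29.4% of the summed TPM, Peg3 followed with 534, 367 and 373 TPM and the growth factor gene Igf2 with 332, 269 and 259 TPM.

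Markers of stromal, endothelial and immune cells were at or near 0, and other lists held some well expressed members. Of 20 stromal and endothelial markers 1 was detected (Plvap, 1.99 TPM), and the list summed to 6.14 to 8.33 TPM per library. Of 16 immune markers 1 was detected (Cd68, 4.03 TPM), with 6 at 0 counts in all libraries and a summed level of 4.12 to 6.08 TPM. Of 20 acinar and duct markers 6 were detected and 10 had no count, and the sum of 913 to 982 TPM came mainly from Spp1 (596 ± 34.3 TPM), a secreted phosphoprotein. Of 14 hepatocyte and enterocyte markers 6 were detected and 3 had no count, and the sum of 79.9 to 88.8 TPM came largely from Apoa2 (41.7 TPM), an apolipoprotein. The list of other islet endocrine cells had 7 of 12 detected and summed to 10131 TPM. Ttr, the thyroid hormone carrier transthyretin, held 94.5% of that sum at 9575 ± 1577 TPM. In the same list Gcg stood at 426 TPM, as given above, and the delta cell factor Hhex was at 0. Of 39 Hox cluster genes 0 were detected. In bulk RNA, fewer cells of a type and less RNA per cell cannot be told apart.

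Below the hormones, the order of the classes was the same in each library at the top and close behind it. Mitochondrially encoded proteins ranked second in each library, at 38895, 50167 and 46447 TPM (45170 ± 5744, and 48307 TPM in libraries 2 and 3), ahead of the granins. The next ranks changed places between libraries. Housekeeping genes (20539 ± 1428 TPM), cytosolic ribosomal proteins (18927 ± 2525 TPM), nuclear subunits of the respiratory chain (18315 ± 2099 TPM) and endoplasmic reticulum chaperones (18052 ± 1165 TPM) held ranks 4 to 7 in a different order in each. In libraries 2 and 3 their means were 19733, 20384, 19527 and 17380 TPM in the same order. Their ranges overlapped, except that those of housekeeping genes and chaperones did not, so no order among the 4 is given. Solute carriers followed at rank 8 in every library, with 11945 TPM over 343 genes. A sum favours long lists and lists with 1 dominant gene. By the median of the members, the order was mitochondrially encoded proteins, endoplasmic reticulum chaperones, prohormone processing, granins and hormones.

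**Figure D3:**
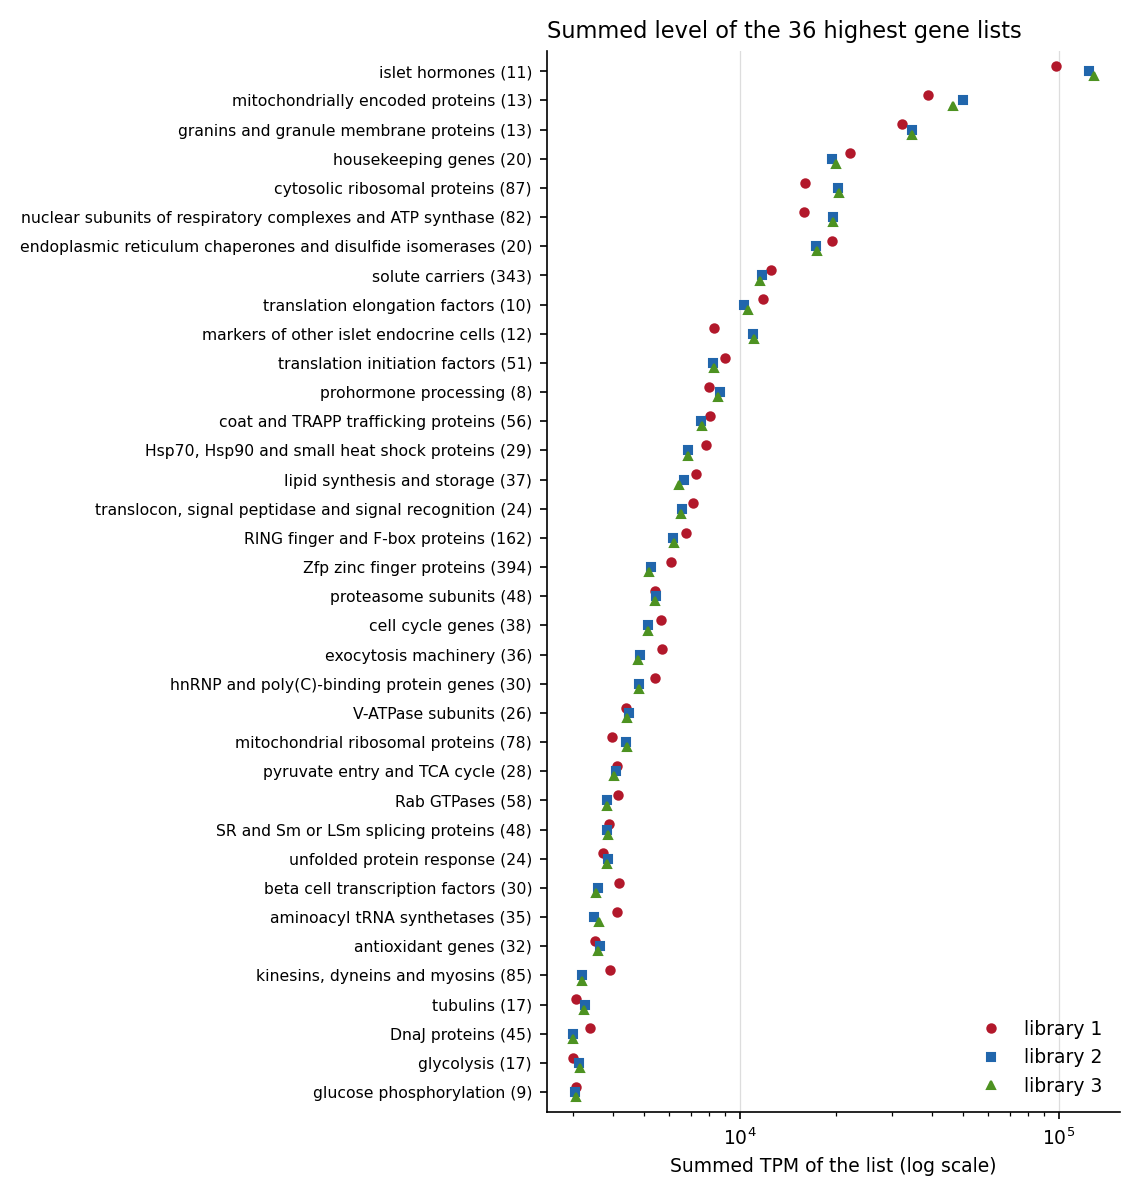
Summed TPM (log scale) of the 36 highest of 70 gene lists in each library (red circles library 1, blue squares library 2, green triangles library 3), with the number of genes in parentheses. Islet hormones lie above all others in each library, and the symbols of ranks 4 to 7 intermingle.

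The level of the mitochondrially encoded class rested on 7 of its 13 genes. mt-Co1, a cytochrome oxidase subunit, averaged 16901 TPM, mt-Nd1 of complex I 10240 TPM and mt-Cytb of complex III 7618 TPM. By contrast, mt-Co3 averaged 8.66 TPM, mt-Atp6 8.12 TPM and mt-Co2 2.25 TPM. In these 3 genes at most 0.136% of coding 50-base words were found in no other annotated gene, against 37.8 to 100% in the 7 highest genes. The low members were thus those whose sequence recurs elsewhere in the annotation, except mt-Atp8, which gave 0 counts with 100% such words. Whether shared sequence lowered their counts was not tested.

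Genes with processed pseudogenes shared sequence in the same way. Processed pseudogenes took 3.82, 4.31 and 4.43% of all counts. Tpt1 had 112 ± 17.1 CPM while Tpt1-ps3, whose 60 bases are shown above, had 1397 ± 142 CPM. Eef1a1 had 2744 ± 63.5 CPM beside 2160 ± 35.5 CPM in Gm13456. Gapdh, an abundant glycolytic enzyme in most cells, gave 118, 128 and 123 counts, or 2.24 TPM, with 204 matched pseudogenes in the annotation that held 16.4 CPM. By the reads assigned to it, Gapdh was thus far below the 908 TPM of Aldoa in the same pathway. Whether shared sequence lowered its counts was not tested, so its level is uncertain. For the 87 cytosolic ribosomal protein genes, the median share of coding 50-base words found nowhere else was 9.86%. They held 7936 CPM against 14258 CPM in 1583 matched pseudogenes, and 57 of the 87 had fewer reads than their pseudogenes. With pseudogene reads added to the best-matching gene, the class rose from 18927 to 45212 TPM and from rank 5 to rank 2. Mitochondrially encoded proteins then held rank 3 at 42408 TPM and granins rank 4 at 31674 TPM. The low rank of the ribosomal class is therefore uncertain, and so are ranks 2 and 3, which were the same between libraries.

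**Figure D4:**
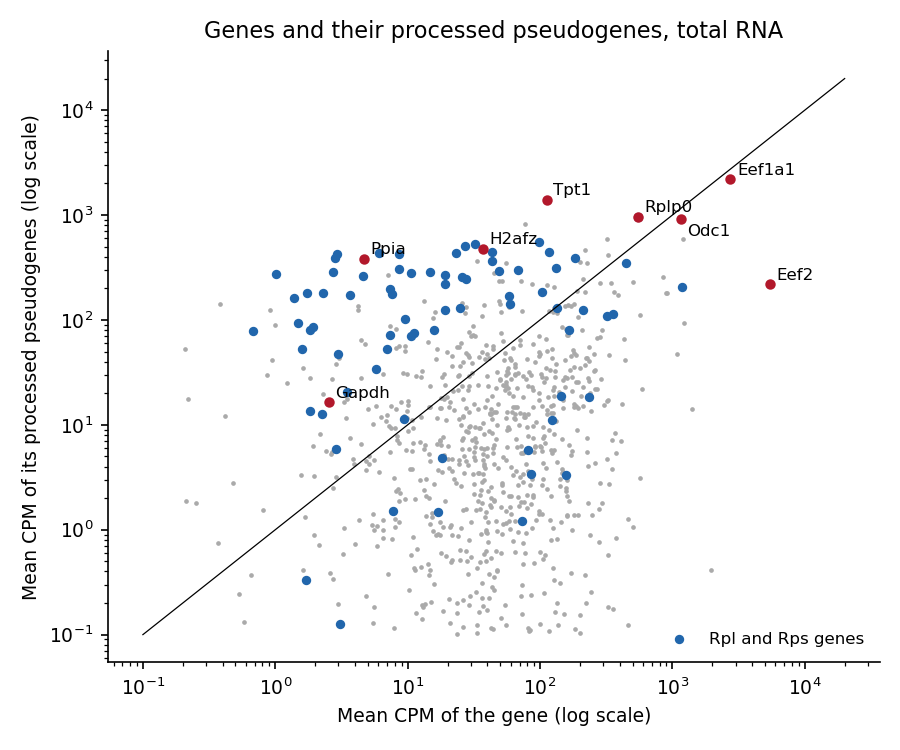
Mean CPM of the matched processed pseudogenes of each protein-coding gene (vertical axis, log scale) against the mean CPM of the gene itself (horizontal axis, log scale), with ribosomal protein genes in blue, chosen genes in red and the line of equality in black. Tpt1, at 112 CPM, lies far above the line with 1397 CPM in Tpt1-ps3 alone, and many ribosomal protein genes lie above it as well.

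Noncoding RNA was a small part. Long noncoding genes took 0.796, 0.763 and 0.793% of counts, and 902 of 9157 (9.85%) were detected. Neat1, the scaffold of nuclear paraspeckles, had 514 ± 27.8 CPM, or 90.3 TPM, Meg3, an imprinted RNA, had 311 CPM and Malat1, a nuclear speckle RNA, 257 CPM. The entry Gm42418, at chr17:39846958-39848788, had 551, 286 and 538 CPM and, at 921 ± 325 TPM, the highest level of a long noncoding entry per length. By CPM it stood above Neat1 in libraries 1 and 3 and below it in library 2. A short miRNA-class model, Gm23935 (chr16:11144125-11144181), had 2684, 634 and 1597 CPM, and the mitochondrial leucyl-tRNA synthetase gene Lars2 had 1221, 289 and 702 CPM. These 3 entries shared 1 order, with library 1 highest and library 2 lowest, and varied far more than the 10.3% typical of the libraries. Whether their reads came from the genes they name was not tested, so their levels may not be gene expression.

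Library 1 differed from the others by class and by transcript length. Of the 11518 genes with a mean of at least 5 CPM, 43.2% were highest in library 1, 30.9% in library 2 and 25.9% in library 3, and 2.40% stood at least 1.5-fold from the mean of libraries 2 and 3. All 6 hormone genes of that level were lowest in library 1 by CPM, with a median log2 difference of −0.60 from the mean of libraries 2 and 3, and 3 of the 6 differed by at least 1.5-fold. Nuclear respiratory subunits were lowest there in 71 of 74 genes (median −0.42) and cytosolic ribosomal proteins in 54 of 61 (median −0.44). Over all genes 43.9% were lowest in library 1, and the median log2 difference was −0.00. The median longest transcripts of the respiratory and ribosomal lists were 1186 and 1106 nt. Of all protein-coding genes of 1000 to 2000 nt, 82.5% were lowest in library 1. On the other side, kinesins, dyneins and myosins were highest in library 1 in 41 of 55 genes (median 0.14), protocadherins in 16 of 21 (median 0.24) and beta cell transcription factors in 15 of 23 (median 0.07). Single genes went further, such as the initiation factor Eif5b with 645, 289 and 316 CPM and Dpysl2, an axon guidance phosphoprotein, with 276, 161 and 163 CPM. At the other end of the spread, the tyrosine kinase gene Abl1 had 74.5, 74.7 and 74.7 CPM, and Ap3s2, a subunit of an adaptor complex, 80.1, 80.3 and 80.0 CPM. Mitochondrially encoded genes of at least 5 CPM were highest in library 2 in 7 of 7 cases and cathepsins, the lysosomal proteases, in 8 of 8, against 30.9% of all genes.

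Transcript length moved with this difference. Genes whose longest transcript was under 1000 nt had a median log2 difference of −0.41 between library 1 and the mean of the others, and 96.0% of the 322 were lowest in library 1. The median was −0.21 at 1000 to 2000 nt, −0.09 at 2000 to 3000 nt, 0.03 at 3000 to 5000 nt, 0.16 at 5000 to 8000 nt and 0.27 from 8000 nt. Between libraries 2 and 3 the medians of the same bins lay between −0.02 and 0.02. GC content moved as well, from 0.12 for transcripts under 40% GC to −0.12 from 60%. The median transcript of the hormone list was 878.5 nt and that of the motor proteins 6032 nt, so the lower hormone sum in library 1 lies beside a general difference in short transcripts. The part of length or GC in it was not tested.

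**Figure D5:**
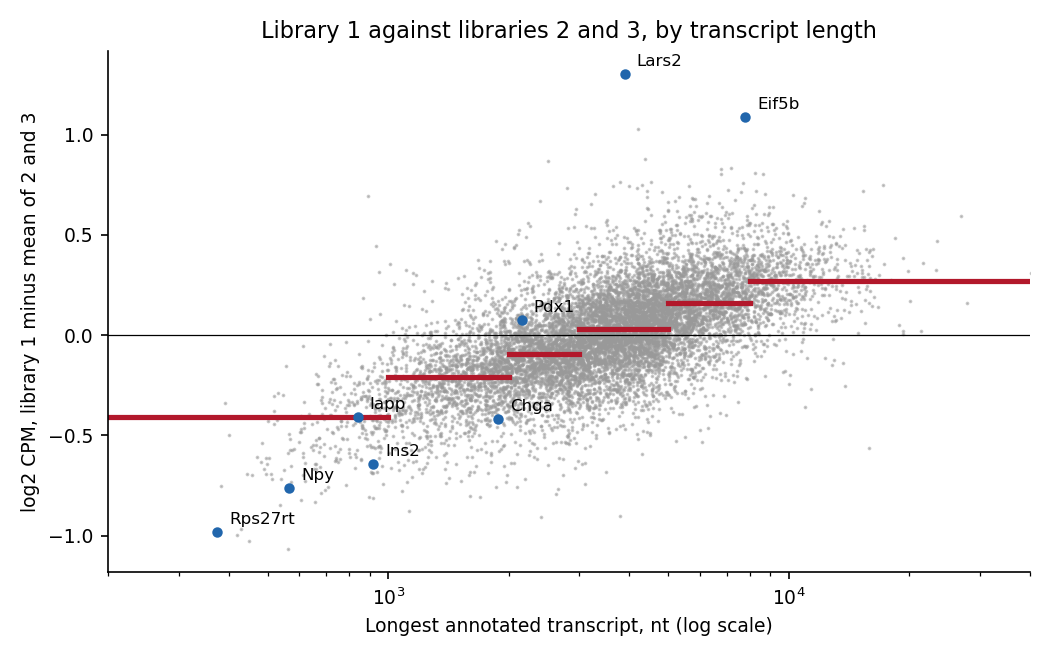
Difference in log2 CPM between library 1 and the mean of libraries 2 and 3 against the longest annotated transcript (nt, log scale) for protein-coding genes with at least 5 CPM, with differences over 1.5 either way drawn at that limit, red bars for bin medians and blue points for named genes. The bin medians rise from −0.41 under 1000 nt to 0.27 from 8000 nt, and Iapp, Ins2 and Npy lie below 0.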

How the data were processed

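The authors deposited 1 table of whole-number counts per gene for each library. Per the submitters' processing notes, reads were aligned to mm10 with TopHat2 and counted with featureCounts. Not given in the sources used here are tool versions, the annotation release, whether strand was used and what became of multi-mapping reads. Reads of a gene and of one that overlaps it or runs antisense may thus be mixed. Among counts of 1 to 20, 58.6 to 64.0% were even, and whether both mates of a pair were counted is not given either.

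Of 53379 entries, 53274 matched GENCODE M21 on GRCm38, which supplied symbols, classes and lengths, and no library had more than 0.0142% of its counts elsewhere. CPM used library totals. TPM divided counts by the union of exons and was scaled over protein-coding and long noncoding genes of at least 200 nt. The biological coefficient of variation was estimated with edgeR 4.0.16 in R 4.3.3 from an intercept alone, over genes with a mean of at least 5 CPM, and was tested on simulated data. Shares of unique 50-base words came from the longest coding sequence. The length by unique words counted those of all annotated transcripts of a gene. Processed pseudogenes were assigned to parents with blastn 2.17.0 (e-value 1e-10).

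The genes named are 7 chosen in any case (Ins2, Iapp, Pdx1, Chga, Hnrnpk, Jund and Ddx3x), the 30 protein-coding genes of highest TPM, the 10 long noncoding genes of highest CPM, the 10 highest and 10 lowest spreads among genes with at least 50 CPM, and from each list up to 6 members of highest TPM, the lowest, and all members of short lists, of which the text gives a selection. Other named genes were chosen after their values were seen. Members and lists were chosen with earlier results of these data known. Alternatives were other lengths, scales, filters and size factors (TMM, DESeq2 1.42.0) and leaving out each library, and lengths by unique words and added pseudogene reads were chosen after seeing the data. Some results are not reported here.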

Additional observations from a re-analysis of the deposited data

How the results depend on the processing

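Islet hormones kept the first rank under every length, scale, filter and left-out library tried. With the length of the longest transcript, Chga stood at 10484 TPM and Pdx1 at 496 TPM, moves larger than their spread. The biological coefficient of variation was 4.09 to 12.3% with 1 library left out, the lowest without library 1, and 12.9% over all 25672 genes with a count. Of 70 class sums, 36 moved by more than their spread, the SD of the 3 libraries, with the longest transcript (18 up, 18 down). With unique 50-base words 25 moved (9 up, 16 down), and with pseudogene reads added 27 (10 up, 17 down). With at least 10 counts, 3 of 68 moved. Over nuclear protein-coding genes alone 32 moved. All went up, because this scale raises every sum in a library by the same factor. That count therefore reflects only the size of the spread. Leaving out 1 library moved 0 sums. That was fixed in advance, since the mean of the remaining libraries cannot move by more than the SD of all 3. No paired analysis was possible because no groups were compared and no test was made. At these depths a gene at 0 in all libraries was below 0.0650 CPM in each, for counting error only.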
